A study of Arabidopsis thaliana with 12 samples.

Results

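The nuclear genes for the light-harvesting antenna, the photosystem subunits, the thylakoid electron carriers and the small subunit of Rubisco were followed in germinating Arabidopsis thaliana seeds that were or were not given abscisic acid (ABA). The members are 52 gene identifiers out of the 36795 entries in the count table. They were chosen by gene family, with earlier results of these data known. They are 15 LHCB genes (antenna of photosystem II), 6 LHCA genes (antenna of photosystem I), 12 genes for photosystem I subunits, 10 for photosystem II subunits, 5 for plastocyanin, the Rieske protein and the ATP synthase, and 4 RBCS genes (Rubisco small subunit). A filter on low counts kept 51 of them. LHCB1.5 had 0 counts in all 12 libraries and was left out of every test.

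The study asked how SPLAYED (SYD), an ATPase that remodels chromatin, takes part in the arrest of growth that ABA imposes just after germination. RNA was sequenced from 6 groups of 2 libraries: line amiR-SYD-1 on 2 µM (±)-ABA, amiR-SYD-1 in ethanol, amiR-SYD-2 on the same ABA, amiR-SYD-2 in ethanol, amiR-HsMYO on ABA and amiR-HsMYO in ethanol. The SYD lines carry artificial microRNAs against SYD, and amiR-HsMYO, which carries an artificial microRNA too, is labelled the wild-type control. All seeds were sown on MS medium holding the ABA or its solvent (0.002% ethanol), kept dark at 4 °C for 3 days, and sampled after 24 h under 16 h of light and 8 h of dark. The tissue is labelled seed. The promoter that drives the artificial microRNAs, and whether a line descends from a single transformed plant, are unknown here. The labels call the libraries biological replicates without naming separate seed batches, so the p-values measure the spread between these libraries. RNA came from whole seeds, so fewer green cells and less of a transcript per cell cannot be told apart.

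LHCB and LHCA proteins bind chlorophyll and pass light energy to photosystem II and photosystem I, whose reaction centres are made in the plastid while many smaller subunits are nuclear. Plastocyanin and the cytochrome b6f complex, which holds the Rieske protein, carry electrons between the photosystems, and the ATP synthase uses the resulting proton gradient. RBCS proteins assemble with a plastid-made large subunit into Rubisco, the enzyme that fixes carbon dioxide. In seedlings these nuclear genes are switched on as cotyledons green in the light, under factors such as HY5 and the GLK proteins, and ABA is known to hold seeds back before greening.

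The 250 bases before the annotated start are shown for 4 members whose behaviour differed: LHCB2.3 had the largest change on ABA, RBCS2B was among the genes that differed most between lines in ethanol, LHCB4.1 had the smallest p in the comparison of ABA responses, and PSBTN changed least on ABA within photosystem II. The sequences come from the RefSeq genome of Arabidopsis, build TAIR10.1, and are written on the strand of the gene. Capitals mark CACGTG (the G-box, bound by light and hormone factors of the bZIP and bHLH families), ACGTGNC (the ABA-response element, bound by factors such as ABI5), GATAAG (the I-box) and CCAATC (letters reported at targets of GLK proteins), each on either strand. CACGTG and ACGTGNC share letters and can overlap.
LHCB2.3 (AT3G27690, chr3:10255656-10255905, plus strand): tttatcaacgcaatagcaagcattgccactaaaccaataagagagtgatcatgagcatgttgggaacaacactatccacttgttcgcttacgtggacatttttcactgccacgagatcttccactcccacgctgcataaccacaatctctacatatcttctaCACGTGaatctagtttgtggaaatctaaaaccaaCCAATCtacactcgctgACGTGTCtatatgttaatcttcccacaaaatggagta
RBCS2B (AT5G38420, chr5:15382072-15382321, minus strand): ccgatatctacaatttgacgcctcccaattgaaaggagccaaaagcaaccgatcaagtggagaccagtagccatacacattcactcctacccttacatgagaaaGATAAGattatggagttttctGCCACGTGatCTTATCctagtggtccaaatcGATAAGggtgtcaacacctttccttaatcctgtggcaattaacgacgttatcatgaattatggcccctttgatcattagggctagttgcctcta
LHCB4.1 (AT5G01530, chr5:208616-208865, plus strand): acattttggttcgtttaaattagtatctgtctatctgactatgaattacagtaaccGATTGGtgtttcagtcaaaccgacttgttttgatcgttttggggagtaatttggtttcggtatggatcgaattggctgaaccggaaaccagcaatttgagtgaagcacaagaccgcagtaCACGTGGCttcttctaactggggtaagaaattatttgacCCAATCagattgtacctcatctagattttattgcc
PSBTN (AT3G21055, chr3:7377227-7377390, minus strand, cut to 164 bases because another gene lies next to it): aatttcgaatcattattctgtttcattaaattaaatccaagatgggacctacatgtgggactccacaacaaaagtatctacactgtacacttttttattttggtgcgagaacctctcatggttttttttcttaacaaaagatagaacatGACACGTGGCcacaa

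LHCB2.3 had the G-box, the ABA-response element and the GLK letters once each, at separate places. In RBCS2B and LHCB4.1 the G-box and the ABA-response element shared letters, beside 3 I-boxes in RBCS2B and the GLK letters at 2 places in LHCB4.1. PSBTN had 1 G-box inside 2 overlapping ABA-response elements. In a window of 300 bases (250 before and 50 after the start), the G-box was found in 18 of 52 members (34.6%), against 7.68% of all 27443 nuclear protein-coding promoters. The ABA-response element was found in 24 members (46.2%, against 10.3% of all promoters), the I-box in 24 (46.2%, against 14.6%) and the GLK letters in 18 (34.6%, against 12.3%). The matches were spread unevenly over the roles. The G-box stood in 7 of 10 photosystem II promoters, the I-box in 8 of 12 photosystem I promoters, and the GLK letters in 8 of 15 LHCB promoters, in 1 of 12 photosystem I promoters and in 0 of 4 RBCS promoters. Members with the G-box had a median log2 change of −1.30 on ABA in amiR-HsMYO and those without it −1.66. The medians with and without a match were −1.40 and −1.70 for the ABA-response element, −1.63 and −1.56 for the I-box, and −1.70 and −1.56 for the GLK letters. The ranges with and without each match overlapped widely. A match describes letters and is no evidence of binding.

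The libraries held 18713555 to 30012796 counts, so 3 counts correspond to 0.09996 to 0.1603 per 1e+06 counts of the unscaled library total. CPM below means counts per 1e+06 after the library totals were scaled (TMM). SYD itself averaged 148.8 ± 6.02 CPM in amiR-SYD-1 and 136.2 ± 14.9 CPM in amiR-SYD-2 on ABA, against 212.9 ± 23.8 CPM in amiR-HsMYO (SD, n = 2 each), and 104.5 ± 5.17 and 103.1 ± 6.39 CPM against 181.5 ± 4.66 CPM in ethanol. Between libraries of 1 group, most members shifted in the same direction. In amiR-SYD-2 on ABA, 49 of the 51 tested members were higher in replicate 2 (median log2 difference 0.41), and in amiR-SYD-2 in ethanol 48 were lower in replicate 2 (−0.36). In amiR-HsMYO, 44 were lower in replicate 2 on ABA (−0.31) and 46 were higher in replicate 2 in ethanol (0.15). In amiR-SYD-1 the shifts were smaller, with 31 and 34 members higher in replicate 2 on ABA and in ethanol. Over all tested genes the share higher in replicate 2 was 48.3% to 50.6% in the 6 groups. Counts of differences between lines are given with their range when single libraries were left out. Why the members shifted together between replicates was not tested.

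**Figure D1:**
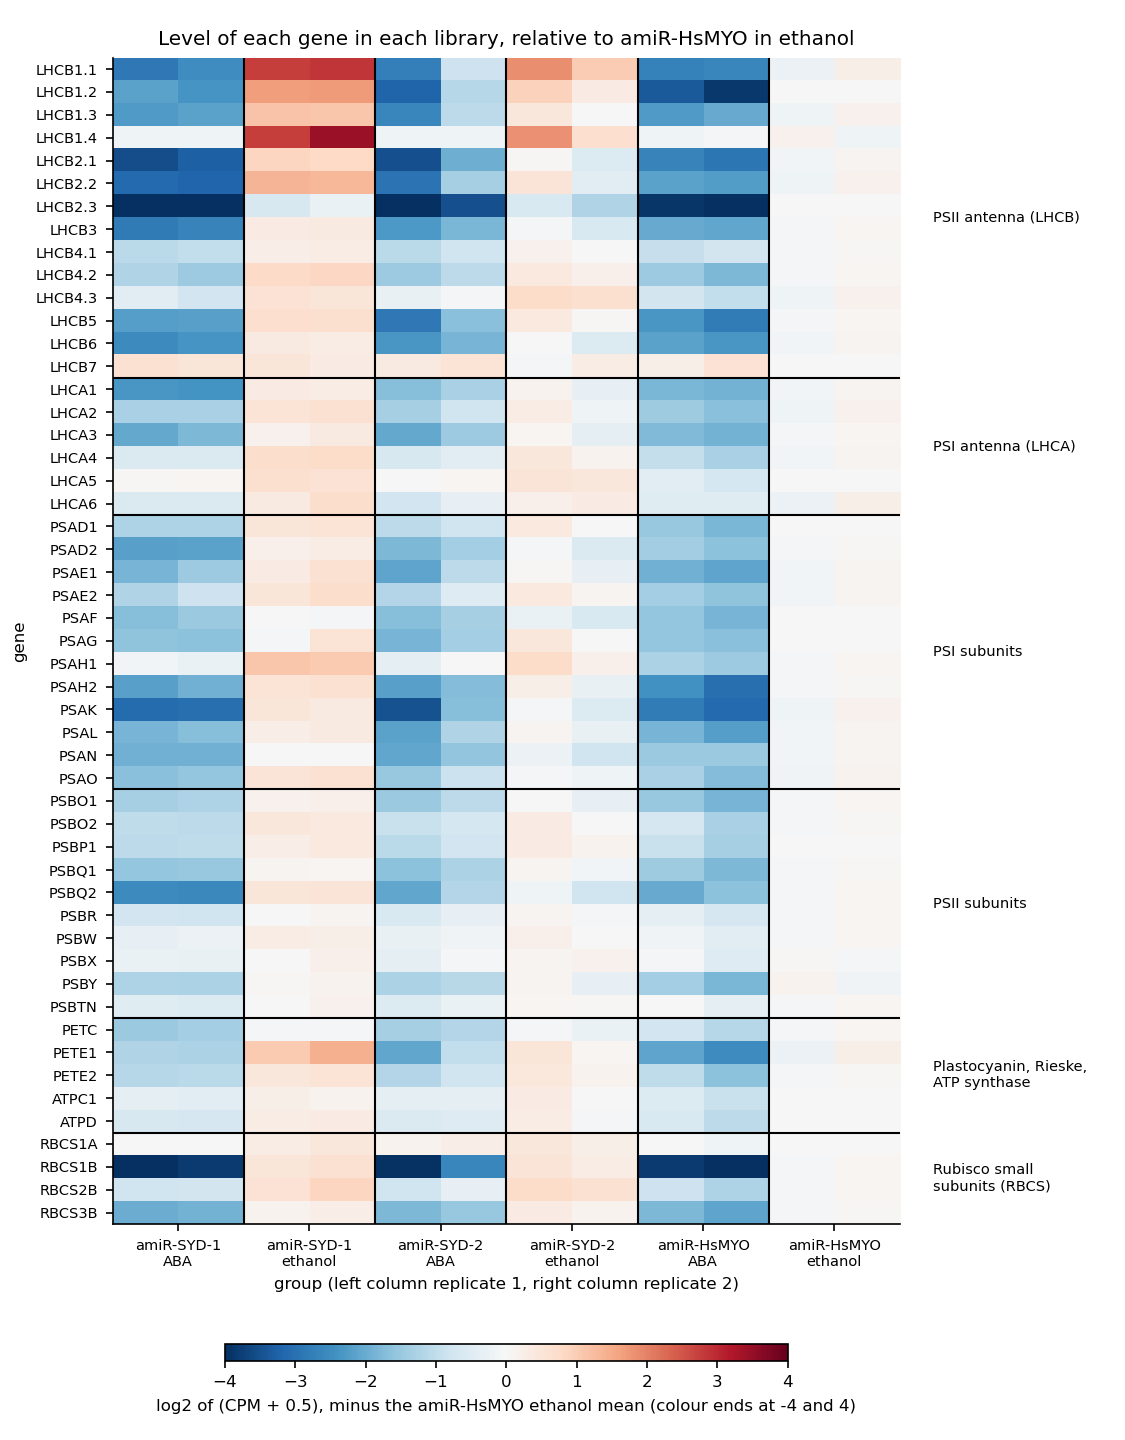
Heat map of the 51 tested members (rows, ordered by role) in the 12 libraries (columns), coloured by log2(CPM + 0.5) minus the mean of the 2 amiR-HsMYO ethanol libraries; the colour scale ends at −4 and 4. The ABA libraries are lower than the ethanol libraries for nearly every row, and the 2 amiR-SYD-2 ABA libraries differ from each other.

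At the ethanol baseline of amiR-HsMYO, the transcripts differed in level over several orders of magnitude. Per kilobase of exon, RBCS1A stood highest at 1639 CPM per kb, followed by RBCS3B (486.5), RBCS2B (280.4), LHCB1.3 (254.5), PSBR (195.4) and PSBP1 (158.8 CPM per kb). LHCB1.3 was the highest antenna gene. The tandem copies LHCB1.1, LHCB1.2 and LHCB1.3 lie within 6.83 kb on chromosome 1 (10472280 to 10479114), LHCB1.4 and LHCB1.5 within 3.4 kb on chromosome 2 (14522524 to 14525918), and RBCS1B, RBCS2B and RBCS3B within 8.33 kb on chromosome 5 (15376988 to 15385320). The labels do not say how reads matching several copies were counted, so the split of counts between near-identical copies is uncertain. Sums over copies are given beside the single genes for some comparisons.

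On ABA, 46 of the 51 tested members fell in amiR-HsMYO (90.2%, against 27.1% of all 19612 tested genes lower) and 1 rose, against 26.9% of all tested genes higher. The median log2 change of the members was −1.58, beside 0.02 over all tested genes. All 12 photosystem I genes fell (median −1.68), as did all 6 LHCA genes (median −1.35) and all 5 genes for plastocyanin, the Rieske protein and the ATP synthase (median −0.95). Of the LHCB genes, 12 of 14 fell and 1 rose (median −2.23), 8 of 10 photosystem II genes fell (median −1.03), and 3 of 4 RBCS genes fell (median −1.49). By class, 18 of 20 antenna genes (median −1.88), 20 of 22 photosystem core genes (median −1.58) and 3 of 4 RBCS genes were lower. Within the antenna of photosystem II, the 8 genes of the major trimeric antenna (LHCB1 to LHCB3) had a median of −2.85 and the 6 of LHCB4 to LHCB7 a median of −1.29. Within photosystem II, the 5 genes of the oxygen-evolving proteins PSBO, PSBP and PSBQ had a median of −1.61, and the other 5 small subunits −0.29.

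**Figure D2:**
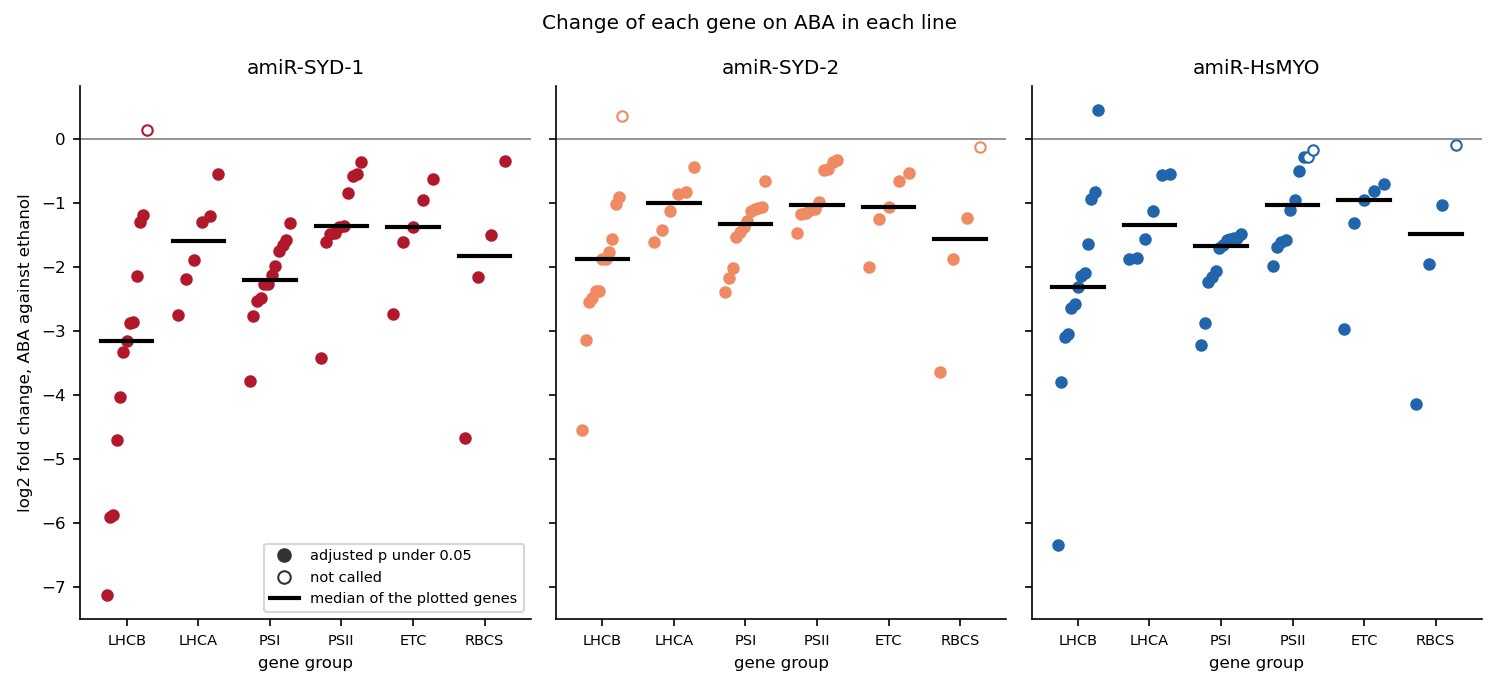
Log2 change on ABA against ethanol for each tested member (points; LHCB1.4 left out for its low counts), by role (x axis), in amiR-SYD-1, amiR-SYD-2 and amiR-HsMYO (panels); filled points passed the test and bars are the medians of the plotted genes. Most points lie below 0 in all 3 lines, with LHCB2.3 lowest in each line and LHCB7 above 0.

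Among the major antenna genes, LHCB1.3 (AT1G29930) had 64.3 and 77.1 CPM in the amiR-HsMYO libraries on ABA, against 277 and 349 CPM in ethanol. Its relative LHCB1.2 (AT1G29910) had 3.26 and 2.11 CPM on ABA, against 37.2 and 38.15 CPM in ethanol, and LHCB1.1 (AT1G29920) had 1.24 and 1.37 CPM on ABA, against 9.23 and 12.95 CPM in ethanol. All 3 lay lower in both ABA libraries than in either ethanol library, with no overlap. LHCB1.3 fell 4.43-fold (log2 change −2.15 ± 0.31, SE; adjusted p = 2.89e-05), LHCB1.2 fell 13.9-fold (−3.80 ± 0.42; adjusted p = 1.73e-06) and LHCB1.1 fell 8.52-fold (−3.09 ± 0.47; adjusted p = 5.18e-05). Summed, these 3 copies fell by 2.28 on the log2 scale (SE 0.32; adjusted p = 2.45e-05).

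The other major antenna genes fell with them. LHCB2.3 had 0.235 and 0 CPM in amiR-HsMYO on ABA, against 10.55 and 10.3 CPM in ethanol, which is 7 counts over the 2 ABA libraries and 501 over the 2 ethanol libraries. This was the largest fitted change among the tested members in amiR-HsMYO (log2 change −6.34 ± 0.52; adjusted p = 5.48e-08). LHCB2.1 fell by 3.05 and LHCB2.2 by 2.64 on the log2 scale, and LHCB3, the third polypeptide of the trimers, fell by 2.102. Summed, LHCB2.1 and LHCB2.2 had a log2 change of −2.93 (adjusted p = 2.53e-06). Of the monomeric antenna, LHCB5 fell by 2.58, LHCB6 by 2.31 and LHCB4.1 by 0.82. LHCB1.4 had 1 count over both ABA libraries and 3 over both ethanol libraries of amiR-HsMYO, too few for a fold.

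LHCB7 (AT1G76570), a rarely expressed relative of the antenna genes, was the 1 member called higher. It had 6.08 and 7.95 CPM in amiR-HsMYO on ABA, against 5.17 and 5.12 CPM in ethanol, so the ABA libraries lay above both ethanol libraries. The change was small (log2 0.44 ± 0.16; adjusted p = 0.0326) and passed the threshold in neither SYD line. LHCB7 lost its call with DESeq2 (0.42; adjusted p = 0.104) and without replicate 2 of amiR-HsMYO on ABA (0.23; adjusted p = 0.315), either amiR-HsMYO ethanol library (0.44; adjusted p = 0.106, and 0.44; adjusted p = 0.114) or replicate 1 of amiR-SYD-1 on ABA (0.41; adjusted p = 0.0548).

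The 6 genes for the antenna of photosystem I fell by 0.56 to 1.88 on the log2 scale. LHCA4 (AT3G47470), which sits next to LHCA1 in the antenna belt, had 74.8 and 59.6 CPM in amiR-HsMYO on ABA, against 135.6 and 157.1 CPM in ethanol (log2 change −1.12 ± 0.12; adjusted p = 8.64e-07). LHCA1 (AT3G54890) had 15.7 and 15.01 CPM on ABA, against 52.7 and 60.55 CPM in ethanol (−1.88 ± 0.14; adjusted p = 1.86e-08). LHCA5 (AT1G45474) and LHCA6 (AT1G19150), which link photosystem I to the NDH complex, had the smallest changes of the 6 genes. LHCA5 fell by 0.56 (adjusted p = 4.88e-05) and LHCA6 by 0.56 (adjusted p = 0.0160), and LHCA6 lost its call without replicate 2 of amiR-HsMYO in ethanol (−0.28; adjusted p = 0.285) or on ABA (−0.56; adjusted p = 0.0516).

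Every photosystem I subunit gene was lower on ABA in both amiR-HsMYO libraries than in either ethanol library. PSAD1 (AT4G02770), which docks ferredoxin, had 45.97 and 37.0 CPM on ABA, against 128.9 and 133.8 CPM in ethanol (log2 change −1.66 ± 0.13; adjusted p = 2.54e-08). PSAK (AT1G30380), a subunit on the antenna side, had 2.39 and 1.81 CPM on ABA, against 17.35 and 22.2 CPM in ethanol and changed most (−3.23 ± 0.34; adjusted p = 9.73e-07). PSAH1 (AT3G16140) had 3.66 and 3.22 CPM on ABA, against 9.14 and 10.1 CPM in ethanol and changed least (−1.48 ± 0.19; adjusted p = 7.71e-06). Its copy PSAH2, which like PSAH1 encodes the subunit where the mobile antenna docks, fell by 2.88. Summed, PSAH1 and PSAH2 had a log2 change of −2.26 (adjusted p = 2.21e-08), and PSAD1 and PSAD2 of −1.64 (adjusted p = 3.69e-08). PSAF, which takes up plastocyanin, fell by 1.70, and PSAL, which lies next to PSAH, by 2.07.

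The photosystem II genes fell by different amounts or did not pass. PSBP1 (AT1G06680), an oxygen-evolving protein and the highest of the group by CPM, had 114.9 and 84.6 CPM in amiR-HsMYO on ABA, against 213.9 and 216.5 CPM in ethanol (log2 change −1.11 ± 0.12; adjusted p = 1.89e-06). PSBQ2 (AT4G05180) had 2.55 and 3.40 CPM on ABA, against 11.1 and 12.5 CPM in ethanol (−1.99 ± 0.24; adjusted p = 4.90e-06). Both were lower in each ABA library than in each ethanol library. PSBO1, which shields the manganese cluster, fell by 1.69 and PSBO2 by 0.95, and PSBY, a small membrane subunit, fell by 1.58. PSBR fell by 0.51 and PSBW by 0.29 (adjusted p = 0.0230), and PSBW lost its call without replicate 2 of amiR-HsMYO on ABA (−0.15; adjusted p = 0.220) or in ethanol (−0.21; adjusted p = 0.181). PSBTN, whose product is a small luminal subunit, had 60.9 and 48.0 CPM on ABA, against 57.9 and 64.9 CPM in ethanol, with overlapping groups (−0.17 ± 0.11; adjusted p = 0.190), and passed without replicate 1 of amiR-HsMYO on ABA (−0.36; adjusted p = 0.0118). PSBX had 79.0 and 58.7 CPM on ABA, against 87.0 and 80.55 CPM in ethanol (−0.28 ± 0.12; adjusted p = 0.0611). PSBX passed with DESeq2 (−0.31; adjusted p = 0.0391), RLE scaling (adjusted p = 0.0444), no low-count filter (adjusted p = 0.000376) and the replicate block (adjusted p = 0.0480). It also passed without replicate 1 of amiR-HsMYO on ABA (−0.52), either amiR-SYD-2 ABA library or replicate 1 of amiR-SYD-2 in ethanol.

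Of the electron carriers, PETE1 (AT1G76100), the minor plastocyanin gene in these seeds, had 0.840 and 0.518 CPM in amiR-HsMYO on ABA, against 4.50 and 6.30 CPM in ethanol (log2 change −2.98 ± 0.36; adjusted p = 4.58e-06). PETE2 (AT1G20340), the major one, had 79.3 and 51.5 CPM on ABA, against 155.9 and 169.5 CPM in ethanol (−1.31 ± 0.16; adjusted p = 4.27e-06). Both plastocyanin genes were lower in each ABA library. PETC, which encodes the Rieske protein, fell by 0.95, and the ATP synthase genes ATPC1 and ATPD by 0.70 and 0.82. ATPC1 (AT4G04640), the gamma subunit, had 134.3 and 104.3 CPM on ABA, against 193.6 and 195.3 CPM in ethanol.

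The RBCS genes differed from each other on ABA. RBCS1A (AT1G67090) had 2034 and 1832 CPM in amiR-HsMYO on ABA, against 2055 and 2102 CPM in ethanol, and did not pass the test (log2 change −0.10 ± 0.09; adjusted p = 0.345). RBCS1B (AT5G38430), from the same family, had 3.73 and 3.03 CPM on ABA, against 57.25 and 62.8 CPM in ethanol, a 17.7-fold fall (−4.14 ± 0.24; adjusted p = 8.60e-10). The ABA libraries of RBCS1B lay far below the ethanol libraries, whereas those of RBCS1A lay just below them. RBCS3B fell by 1.95 (adjusted p = 8.60e-10) and RBCS2B by 1.03 (adjusted p = 2.03e-05). Summed, RBCS1B, RBCS2B and RBCS3B had a log2 change of −1.71 (adjusted p = 1.75e-08), and how counts split between these copies is uncertain. As a share of all RBCS counts, RBCS1A was 86.3 ± 0.318% on ABA against 67.2 ± 0.382% in ethanol in amiR-SYD-1, 85.8 ± 1.46% against 66.9 ± 0.700% in amiR-SYD-2, and 86.3 ± 1.18% against 67.35 ± 0.941% in amiR-HsMYO (SD, n = 2 each). RBCS1B was 0.140%, 0.223% and 0.151% of RBCS counts on ABA, against 2.19%, 2.04% and 1.94% in ethanol, in the same order of lines. The share of RBCS1A thus differed between treatments by more than it did between lines or replicates.

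**Figure D3:**
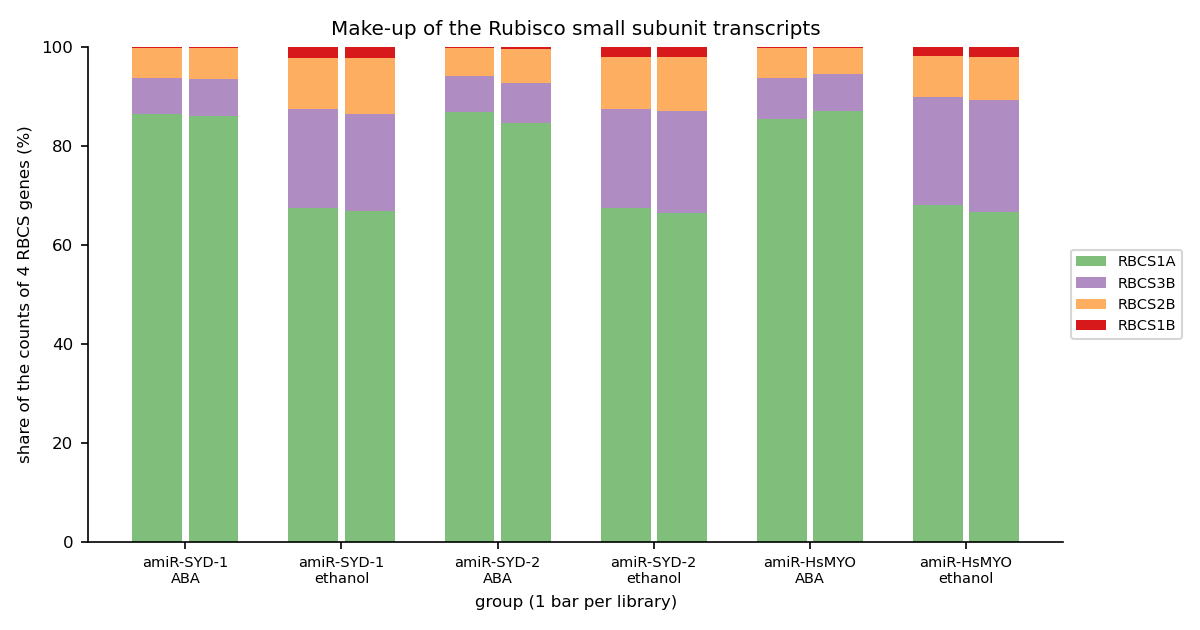
Share of summed RBCS counts (percent, stacked bars) held by RBCS1A, RBCS1B, RBCS2B and RBCS3B in each of the 12 libraries. RBCS1A holds more of the counts in all 6 ABA libraries than in all 6 ethanol libraries, in each of the 3 lines.

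Summed over a role, the level in CPM followed the single genes. The LHCB genes summed to 217 ± 5.52 CPM on ABA against 1514 ± 2.12 CPM in ethanol in amiR-SYD-1, to 273 ± 122 CPM against 928 ± 182 CPM in amiR-SYD-2, and to 223 ± 8.202 CPM against 809 ± 86.9 CPM in amiR-HsMYO (SD, n = 2 each). The photosystem I genes summed to 160 ± 8.56 CPM on ABA against 605 ± 13.0 CPM in ethanol in amiR-SYD-1, to 190 ± 45.3 CPM against 450 ± 90.4 CPM in amiR-SYD-2, and to 138 ± 20.7 CPM against 477 ± 26.3 CPM in amiR-HsMYO. In each line these ABA sums lay well below the ethanol sums, and the SD was widest in amiR-SYD-2. The 4 RBCS genes, of which RBCS1A is the bulk, summed to 2444 ± 31.1 CPM on ABA against 4008 ± 298 CPM in ethanol in amiR-SYD-1, to 2817 ± 231 CPM against 3943 ± 396 CPM in amiR-SYD-2, and to 2242 ± 197 CPM against 3086 ± 92.6 CPM in amiR-HsMYO. Without RBCS1A, all members together summed to 1788 ± 33.9 CPM on ABA against 5897 ± 182 CPM in ethanol in amiR-SYD-1, to 2040 ± 380 CPM against 4840 ± 657 CPM in amiR-SYD-2, and to 1673 ± 250 CPM against 4308 ± 255 CPM in amiR-HsMYO.

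The fall on ABA was present in both SYD lines. In amiR-SYD-1, 50 of 51 members fell (98.0%, against 25.2% of all tested genes lower; median −1.89), and in amiR-SYD-2, 49 fell (96.1%, against 23.6%; median −1.23). LHCB1.1 had 1.07 and 1.56 CPM on ABA in amiR-SYD-1, against 78.0 and 81.7 CPM in ethanol, and 1.24 and 5.94 CPM in amiR-SYD-2, against 41.4 and 22.4 CPM in ethanol. LHCB1.4 had 0 counts on ABA in amiR-SYD-1, against 169 in ethanol (at least 62.2-fold lower with a floor of 3 counts over the group), and 0 against 41 in amiR-SYD-2 (at least 12.7-fold lower). RBCS1A, which did not pass in the control, fell in amiR-SYD-1 (2095 and 2121 CPM on ABA, against 2562 and 2823 CPM in ethanol; −0.35, adjusted p = 0.00452) and did not pass in amiR-SYD-2 (−0.13; adjusted p = 0.270). RBCS1A lost its call in amiR-SYD-1 without replicate 2 of amiR-SYD-1 in ethanol (−0.28; adjusted p = 0.0666).

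The difference between the ABA responses was then tested. For the mean response of the SYD lines minus that of amiR-HsMYO, edgeR called none of the 51 members. Over all tested genes it called 5.14%, in either direction. DESeq2 called 0 members. In edgeR 7 members had an unadjusted p under 0.05. The share of all tested genes at that unadjusted level is not given here or below. The smallest p belonged to LHCB4.1, whose change was lower in the SYD lines by 0.34 (adjusted p = 0.111), and to PSBTN (−0.35; adjusted p = 0.160). PSBO1 (0.39; adjusted p = 0.218), PSAF (0.37; adjusted p = 0.221), LHCB2.2 (−1.49; adjusted p = 0.229) and PSAH1 (0.49; adjusted p = 0.244) followed, in both directions. Some passed when 1 library was left out: LHCB4.1 without replicate 1 of amiR-HsMYO on ABA (−0.43; adjusted p = 0.0383), PSBTN without replicate 2 of that group (−0.51; adjusted p = 0.0302), LHCB2.2 without replicate 2 of amiR-SYD-2 on ABA (−2.35; adjusted p = 0.0292) and PSAH1 without replicate 1 of amiR-SYD-2 in ethanol (0.67; adjusted p = 0.0423). A p above the threshold does not show that the responses were the same. The 3 comparisons by line were added after values had been seen. The amiR-SYD-1 response was lower than that of amiR-HsMYO for 3 members (LHCB3 by 1.05, LHCA1 by 0.86 and PSAD2 by 0.92), with none higher, against 2.84% of all tested genes in either direction. LHCB3 lost its call in 5 of the 12 fits without a library, and LHCA1 and PSAD2 in 7 each. PSAD2 did not pass when summed with PSAD1 (−0.22; adjusted p = 0.632). None was called for amiR-SYD-2, against 3.70% of all tested genes called in either direction (edgeR). The sum of PSAH1 and PSAH2 did pass for amiR-SYD-2 (0.95; adjusted p = 0.0366). DESeq2 called 1 higher, and 9 had an unadjusted p under 0.05 in edgeR. None was called for amiR-SYD-1 minus amiR-SYD-2 either, against 0.00% of all tested genes called (edgeR). DESeq2 called 4 lower, and 24 had an unadjusted p under 0.05 in edgeR. All 51 values were negative there (median −0.55), and the share over all tested genes is not given here. The members shifted together between the amiR-SYD-2 replicates, so these are not 51 independent results. LHCB1.4 among them had 0 counts on ABA in both SYD lines. These comparisons share libraries with each other and with those above.

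In ethanol, the SYD lines had more members higher than lower. For the mean of both lines against amiR-HsMYO, 16 of 51 were higher (31.4%, against 17.7% of all tested genes) and 1 was lower, against 14.5% lower. The 16 were 5 LHCB, 3 LHCA, 3 photosystem I, 2 electron carrier and 3 RBCS genes. The count ran from 10 to 23 when single libraries were left out, with 10 without replicate 1 of amiR-HsMYO in ethanol. In amiR-SYD-1 25 were higher (49.0%, against 15.1%; 11 to 30 when single libraries were left out), with 10 of 14 LHCB genes among them. In amiR-SYD-2, 7 were higher (13.7%, against 14.6% of all tested genes) and 3 were lower (LHCB2.3, PSAF and PSAN), against 11.3%, shares near or below the background. These counts ran from 4 to 9 higher and from 0 to 7 lower when single libraries were left out. Both lines were set against the same 2 control libraries.

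LHCB1.1 differed most among the members with counts in every group. It had 78.0 and 81.7 CPM in amiR-SYD-1 and 41.4 and 22.4 CPM in amiR-SYD-2 in ethanol, against 9.23 and 12.95 CPM in amiR-HsMYO. Each SYD library lay above both control libraries, and their mean was 4.50-fold higher (log2 difference 2.17 ± 0.27; adjusted p = 2.39e-05). In amiR-SYD-2 alone, the LHCB1.1 call was lost with DESeq2 (1.53; adjusted p = 0.0974). Summed with LHCB1.2 and LHCB1.3, the difference was 1.28 in amiR-SYD-1 (adjusted p = 0.00622). In amiR-SYD-2 that sum did not pass (0.34; adjusted p = 0.445). LHCB1.2 had 120.1 and 125 CPM in amiR-SYD-1 and 72.1 and 47.3 CPM in amiR-SYD-2, against 37.2 and 38.15 CPM in amiR-HsMYO (1.18 ± 0.27; adjusted p = 0.00322), a call lost with DESeq2 (adjusted p = 0.111). LHCB1.3 was not called (0.67; adjusted p = 0.0611), but passed without either amiR-SYD-2 ABA library (0.67 each; adjusted p = 0.000713 and 0.000708) and without replicate 2 of amiR-SYD-2 in ethanol (0.77; adjusted p = 0.0431), and summed over the 3 copies the difference was 0.81 (adjusted p = 0.0327). LHCB1.4 had 169 counts in amiR-SYD-1 and 41 in amiR-SYD-2, against 3 in amiR-HsMYO, ratios of 72.4 (95% counting interval 24.4 to 355) and 13.7 (4.36 to 69.0). LHCB2.3 was the 1 member lower: it had 6.45 and 8.51 CPM in amiR-SYD-1 and 6.67 and 4.28 CPM in amiR-SYD-2, against 10.55 and 10.3 CPM in amiR-HsMYO (−0.72 ± 0.24; adjusted p = 0.0313), a call lost with DESeq2 (adjusted p = 0.778) and without either amiR-HsMYO ethanol library (adjusted p = 0.151 and 0.124), replicate 1 of amiR-SYD-1 in ethanol (0.0955) or replicate 2 of amiR-SYD-2 in ethanol (0.0944).

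Genes of other roles were higher too. LHCA5 had 60.65 and 57.8 CPM in amiR-SYD-1 and 55.8 and 53.6 CPM in amiR-SYD-2 in ethanol, against 38.4 and 39.4 CPM in amiR-HsMYO (log2 difference 0.55 ± 0.07; adjusted p = 4.04e-05). PSAH1 had 21.2 and 20.6 CPM in amiR-SYD-1 and 16.2 and 11.1 CPM in amiR-SYD-2, against 9.14 and 10.1 CPM in amiR-HsMYO (0.80 ± 0.14; adjusted p = 0.000497). RBCS2B had 392.2 and 476.9 CPM in amiR-SYD-1 and 438.9 and 399.1 CPM in amiR-SYD-2, against 247.8 and 276.5 CPM in amiR-HsMYO (0.70 ± 0.13; adjusted p = 0.000563). For these 3 genes each of the 4 SYD libraries lay above both control libraries. LHCB4.2, a minor antenna gene, was higher by 0.54 (adjusted p = 0.00087), PETE1 by 0.78 (adjusted p = 0.0129; 0.57 and 0.176 without replicate 1 of amiR-HsMYO in ethanol), and LHCA4 by 0.51 (adjusted p = 0.00126). Of the other RBCS genes, RBCS1A was higher by 0.36 (adjusted p = 0.00275) and RBCS1B by 0.48 (adjusted p = 0.0241). RBCS1B lost its call with DESeq2 (0.49; adjusted p = 0.367) and without either amiR-HsMYO ethanol library (adjusted p = 0.185 and 0.0704), replicate 2 of amiR-SYD-1 in ethanol (0.0651) or replicate 1 of amiR-SYD-2 in ethanol (0.0635). The 10 photosystem II genes lay between −0.0038 and 0.29.

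**Figure D4:**
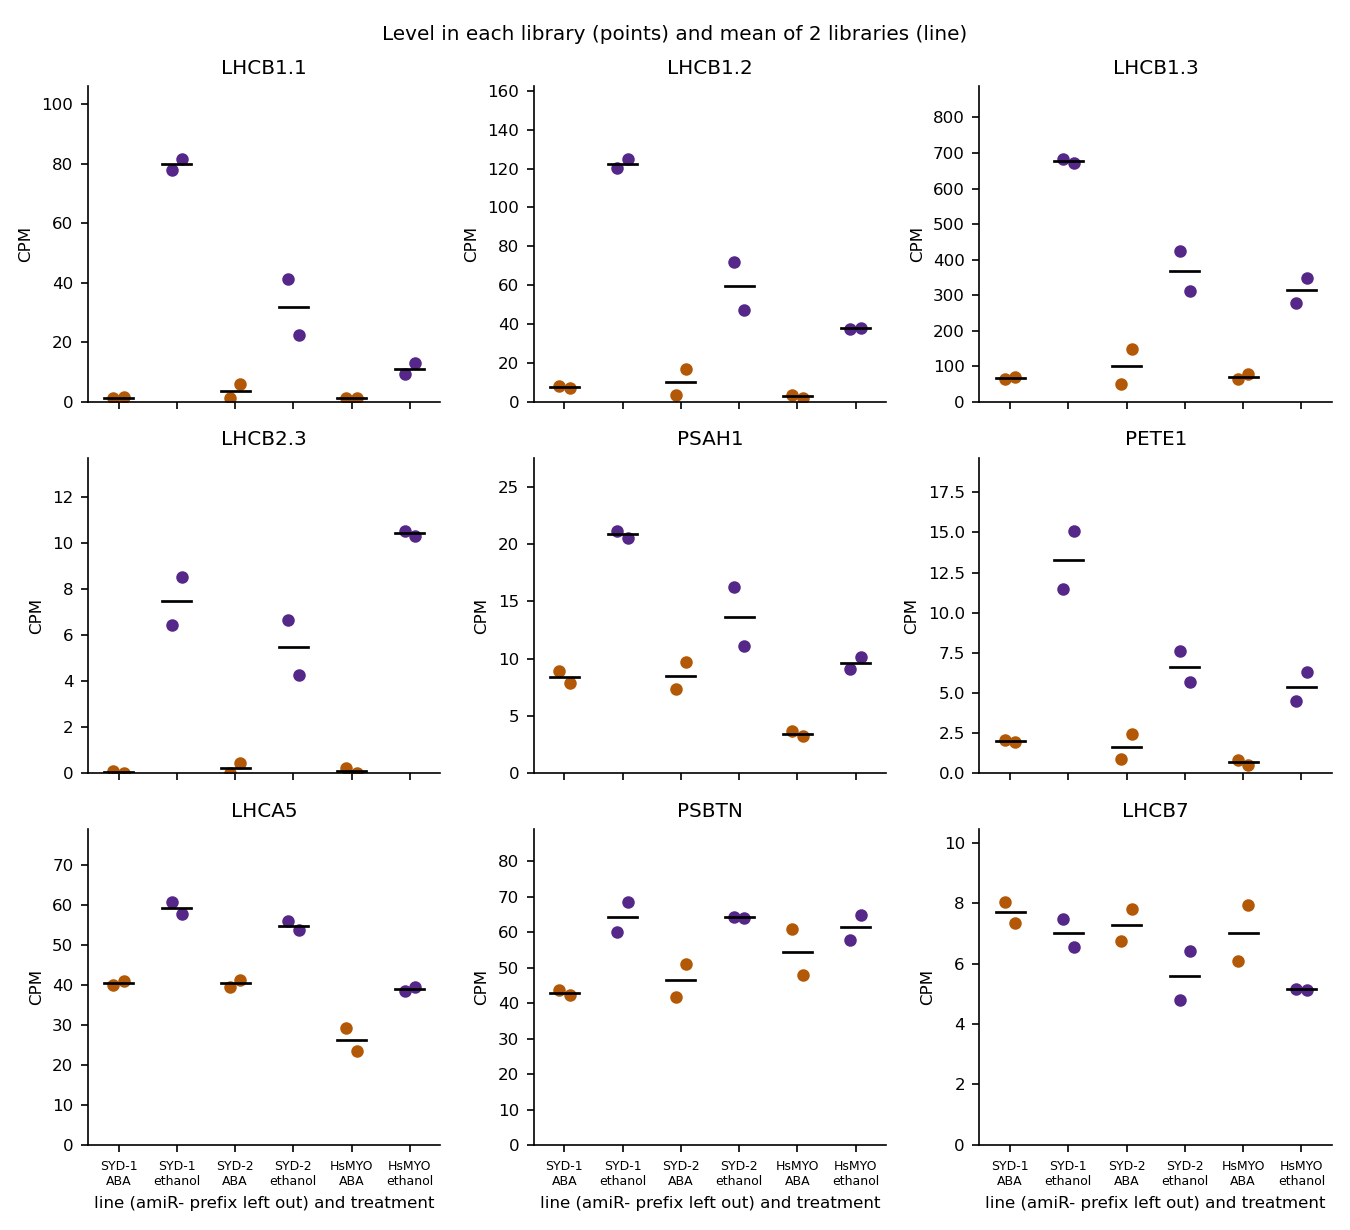
CPM (linear axes from 0) of 9 members in each library (points), by line and treatment, with a short line at the mean of the 2 libraries. LHCB1.1 lies higher in the SYD lines than in amiR-HsMYO in ethanol, and PSAH1 and LHCA5 do so on ABA and in ethanol.

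On ABA, more members were higher than lower for the mean of the SYD lines and in amiR-SYD-2, but not in amiR-SYD-1. For the mean of both lines, 13 members were higher (25.5%, against 16.8% of all tested genes) and 2 were lower (PSBTN and PETC; 3.92%, against 15.9%). The 13 were 2 LHCB, 2 LHCA, 4 photosystem I, 1 photosystem II, 2 electron transport and 2 RBCS genes. The number depended on single libraries: 4 without replicate 2 of amiR-HsMYO on ABA, 8 without replicate 2 of amiR-SYD-2 on ABA, and 21 without replicate 1 of amiR-SYD-2 on ABA. In amiR-SYD-1, 5 were higher (9.80%, against 14.0%) and 5 were lower (9.80%, against 12.2%), both below the background, with 3 to 13 higher and 0 to 7 lower when single libraries were left out. The 5 higher were LHCA4, LHCA5, PSAD1, PSAH1 and PETE1, and the 5 lower were LHCB3, LHCA1, PSAD2, PSBTN and PETC. LHCA4, LHCA5 and PSAH1 passed in all 18 alternatives run, and the other 7 lost their call without at least 1 of the ABA libraries of amiR-SYD-1 or amiR-HsMYO. PSBTN also lost it with DESeq2 (adjusted p = 0.0509). With PSAD1 and PSAD2 summed, the difference was positive (0.24) and did not pass. In amiR-SYD-2, 14 were higher (27.5%, against 13.8%; 5 to 25 when single libraries were left out), with 5 left without replicate 2 of amiR-SYD-2 or without replicate 2 of amiR-HsMYO on ABA.

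**Figure D5:**
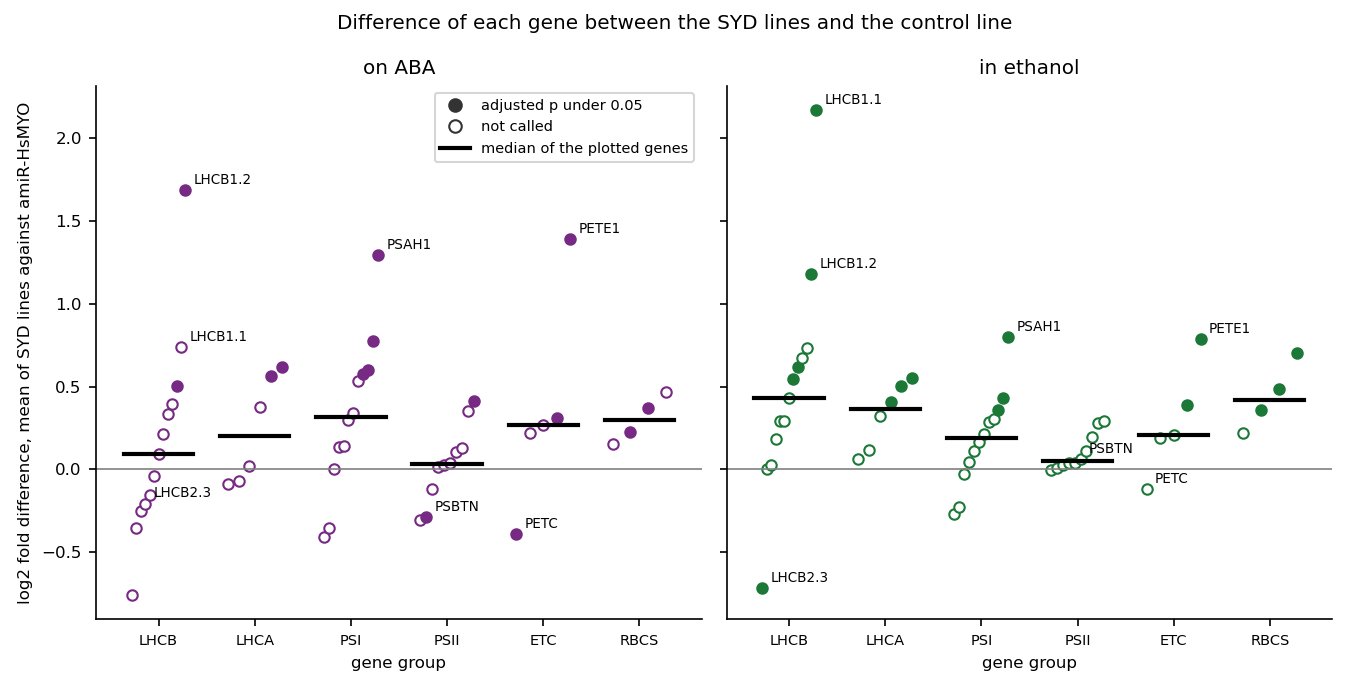
Log2 difference of the mean of the 2 SYD lines from amiR-HsMYO for each tested member (points; LHCB1.4 left out), on ABA (left) and in ethanol (right), by role. Filled points passed the test, bars are medians of the plotted genes, and those furthest above 0 are LHCB1.2, PETE1 and PSAH1 on ABA and LHCB1.1 and LHCB1.2 in ethanol.

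PSAH1 and LHCA5 had the smallest p on ABA. PSAH1 had 8.95 and 7.91 CPM in amiR-SYD-1 and 7.32 and 9.68 CPM in amiR-SYD-2, against 3.66 and 3.22 CPM in amiR-HsMYO (log2 difference 1.29 ± 0.17; adjusted p = 4.15e-05), and summed with PSAH2 the difference was 1.09 (adjusted p = 0.000148). LHCA5 had 39.8 and 41.0 CPM in amiR-SYD-1 and 39.45 and 41.3 CPM in amiR-SYD-2, against 29.1 and 23.45 CPM in amiR-HsMYO (0.62 ± 0.08; adjusted p = 1.84e-05). Each SYD library lay above both control libraries for both genes. LHCA4 was higher by 0.56 (adjusted p = 0.000713) and PSAD1 by 0.58 (adjusted p = 0.00117). LHCB1.2 had 8.08 and 6.94 CPM in amiR-SYD-1 and 3.62 and 16.8 CPM in amiR-SYD-2, against 3.26 and 2.11 CPM in amiR-HsMYO (1.68 ± 0.45; adjusted p = 0.00991), a call lost without replicate 2 of amiR-HsMYO on ABA (1.42; adjusted p = 0.0825) and when the copies were summed (0.32; adjusted p = 0.409). PETE1 was higher by 1.39 (adjusted p = 0.0129), a call lost without replicate 2 of amiR-HsMYO on ABA (1.101; adjusted p = 0.105) or of amiR-SYD-2 on ABA (0.95; adjusted p = 0.0726). PETC was lower by 0.39 (adjusted p = 0.00500), and without replicate 1 of amiR-HsMYO on ABA by 0.18 (adjusted p = 0.159). PSBTN was lower by 0.29 (adjusted p = 0.0292), a call lost with DESeq2 (adjusted p = 0.0577) and without replicate 1 of amiR-HsMYO on ABA (−0.10; adjusted p = 0.478), either amiR-SYD-1 ABA library (adjusted p = 0.0701 and 0.0818) or replicate 1 of amiR-SYD-2 on ABA (adjusted p = 0.111). RBCS2B was higher by 0.37 (adjusted p = 0.0349) and RBCS1A by 0.22 (adjusted p = 0.0409), and both calls were lost without replicate 2 of amiR-HsMYO on ABA (0.19; adjusted p = 0.354, and 0.15; adjusted p = 0.206), without either amiR-SYD-1 ABA library and without replicate 2 of amiR-SYD-2 on ABA. RBCS2B also lost its call with DESeq2 (adjusted p = 0.0964) and when copies were summed (0.25; adjusted p = 0.0875). No difference was detected in LHCB1.1 (0.74; adjusted p = 0.357) or LHCB1.3 (0.21; adjusted p = 0.575) on ABA. Of the members, 16 overlap a gene on the other strand, among them PSAH1, LHCA5, LHCA4, LHCB1.3, LHCB2.3 and LHCB3. On the same strand 2 members, PSAD2 and PSBP1, overlap a gene. The labels do not say whether counting used strand, so reads from the partner cannot be told apart.

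The 2 SYD lines differed from each other for few members. In ethanol, 5 were higher in amiR-SYD-1 than in amiR-SYD-2 (LHCB1.1, LHCB3, PSBQ2, LHCB1.4 and LHCB2.1), against 0.413% of all tested genes, with 0 to 14 when single libraries were left out. All 5 lost their call without either amiR-SYD-1 ethanol library or without replicate 2 of amiR-SYD-2 in ethanol. They also lost it without replicate 2 of amiR-SYD-1 on ABA, a library outside this comparison. Some were lost without replicate 1 of amiR-SYD-1 on ABA or without either amiR-HsMYO ethanol library. With DESeq2 LHCB1.1 (adjusted p = 0.856), LHCB2.1 (adjusted p = 0.856) and LHCB1.4 (adjusted p = 0.9997) did not pass, nor did the summed copies that hold LHCB1.1 (0.94; adjusted p = 0.235) and LHCB2.1 (1.17; adjusted p = 0.0532). On ABA, LHCA1 alone was lower in amiR-SYD-1, against 0.352%, with 0 to 7 lower when single libraries were left out and 3 with DESeq2. It had 10.8 and 10.25 CPM in amiR-SYD-1, against 17.0 and 22.7 CPM in amiR-SYD-2. LHCA1 lost its call without either amiR-SYD-1 ABA library (adjusted p = 0.0916 and 0.187) or replicate 2 of amiR-SYD-2 on ABA (−0.69; adjusted p = 0.263).

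Other genes of the chloroplast were counted on ABA in amiR-HsMYO against the same background of 27.1% of all tested genes lower and 26.9% higher. Of 15 tested Calvin-Benson cycle genes 8 fell and 1 rose (median −0.39), of 15 other thylakoid genes 7 fell and 3 rose (−0.16), and of 13 chlorophyll synthesis genes 8 fell and 1 rose (−0.51). Of 12 light and greening regulators 7 fell and 3 rose (−0.33), of 6 plastid sigma factor genes 3 fell (−0.21), and of 6 genes for antenna targeting and photosystem assembly 2 fell (33.3%, near the background; −0.11). RCA, the Rubisco activase, had 96.1 and 74.7 CPM on ABA, against 338.3 and 356.4 CPM in ethanol (log2 change −2.02), and PORB, which makes chlorophyllide in the light, had 31.3 and 19.1 CPM, against 489 and 498 CPM (−4.29). CHLH fell by 3.43, SBPASE by 1.35 and SIG5 by 1.12. GLK2, an activator of photosynthesis genes, fell by 0.68 and GLK1 rose by 0.42 (0.26 without replicate 1 of amiR-HsMYO on ABA and 0.30 without replicate 1 in ethanol, neither passing), and ABI5, an ABA-response factor, rose by 2.86. In the SYD lines GLK2 was higher by 1.195 in ethanol and 1.06 on ABA, and PORB by 0.95 and 1.53. CGA1, a GATA factor of greening, was lower there by 1.12 in ethanol (adjusted p = 4.02e-08), with 22.4 to 27.0 CPM in the SYD lines, against 51.9 and 58.1 CPM in amiR-HsMYO, and by 0.75 on ABA (adjusted p = 3.27e-06). PORC, a relative of PORB, was lower by 0.34 in ethanol (adjusted p = 0.0109). Of the 12 regulators, 7 were higher and 2 lower in the SYD lines in ethanol, and 4 were higher and 3 lower on ABA. Of the 13 chlorophyll synthesis genes, 6 were higher and 1 lower in ethanol, and 6 were higher and 0 lower on ABA. Over all tested genes, 17.7% were higher and 14.5% lower in ethanol, and 16.8% and 15.9% on ABA.

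Markers of other seed tissues moved with ABA as well. The summed level of 6 seed storage and oil body genes was 671 to 1285 CPM over the 6 ABA libraries, against 68.2 to 313 CPM over the 6 ethanol libraries, without overlap. In amiR-HsMYO this gap was made by CRA1 (477 and 316 CPM on ABA, against 110.5 and 33.3 CPM in ethanol) and OLE1 (314 and 294 CPM on ABA, against 17.35 and 5.35 CPM in ethanol), while SESA1, SESA2, CRU2 and CRU3 overlapped. Of the 5 root epidermis markers, COBL9 had 0 to 0.137 CPM on ABA, against 1.63 to 11.0 CPM in ethanol, and EXPA7 was at 0 in all 6 ABA libraries. RHD6 and GL2 did not go that way, with 22.3 to 37.2 and 11.6 to 15.6 CPM on ABA, against 18.7 to 29.3 and 9.26 to 13.6 CPM in ethanol. The 5 summed to 37.2 to 48.9 CPM on ABA, against 33.5 to 60.9 CPM in ethanol, with overlap. The sum of 4 endosperm markers overlapped (3241 to 4941 CPM on ABA, against 2383 to 4457 CPM in ethanol), and most of it was EPR1. MAN7 (227 to 305 CPM on ABA, against 37.6 to 56.2 CPM in ethanol) and EXPA2 (831 to 1010 CPM on ABA, against 422 to 544 CPM in ethanol) did not overlap. ZOU was at 0 in 11 of 12 libraries. The 3 seed coat markers summed to at most 0.264 CPM in any library. In the SYD lines 4 of the 5 root epidermis markers were higher than in amiR-HsMYO in ethanol and 1 was lower, and 3 of the 6 seed storage and oil body genes were higher in ethanol and 4 on ABA, with 1 lower on ABA. Their part in the members' values was not tested.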

How the data were processed

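Whole-seed RNA was sequenced from 12 libraries in 6 groups of 2. Per the labels' protocols, the kit was stranded and reads were 100 bp pairs. The submitters' processing notes list Trimmomatic 0.39, STAR 2.7.10a and build TAIR10. The counter, its annotation, whether it used strand and how it handled reads matching several genes were not given in the sources used here. The deposited values are raw counts per gene, with no normalization by the authors. A library total is the sum over the table.

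Counts were tested with edgeR 4.0.16 in R 4.3.3 (quasi-likelihood, TMM scaling, filterByExpr with a minimum count of 10, 1 mean per group over all 12 libraries, Benjamini-Hochberg over 19612 tested genes, called at an adjusted p under 0.05, 2-sided). CPM is the count divided by the library's total over the tested genes times its TMM factor, and multiplied by 1e+06. Intervals and floors cover counting error only. The fit has 6 residual degrees of freedom. Replicate libraries differed beyond counting noise (chi-square per degree of freedom 2.40 to 13.3). Alternatives were DESeq2 1.42.0, RLE scaling, no low-count filter, fits of the compared groups alone, a replicate block, near-identical copies summed, and 12 fits that each left out 1 library. The labels and headers name no batch. The edgeR fit was run on simulated counts with known changes, for ABA against ethanol in amiR-HsMYO only. Genes were drawn independently, so shifts of members together between replicates were not simulated. Promoter sequences came from the RefSeq genome and annotation of TAIR10.1.

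The 52 members and all other lists were chosen with earlier results of these data known. Named with full values were, per role, the member with the highest CPM and those with the largest and smallest change on ABA in amiR-HsMYO, the 6 with the smallest p for each comparison of lines or responses, members called against the common direction, summed copies, and 2 genes per other list. Other members are named with shorter values, and PETE2 with full values, and were chosen after their values were seen. There were 12 planned comparisons, and 3 comparisons of ABA responses by line were added after values were seen.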

Additional observations from a re-analysis of the deposited data

Results flagged for a closer look

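The ABA response of amiR-SYD-1 differed from that of amiR-HsMYO, by a test of the difference itself, for 3 members. Over all tested genes, 2.84% were called in either direction. This comparison was added after values had been seen. The log2 difference was −1.053 for LHCB3 (edgeR adjusted p = 0.0225), −0.8638 for LHCA1 (adjusted p = 0.0370) and −0.9207 for PSAD2 (adjusted p = 0.0415). LHCB3 lost its call in 5 of the 12 fits without a library, LHCA1 in 7 and PSAD2 in 7 and when its copies were summed.

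The 2 SYD lines differed from each other in ethanol for 5 members, with log2 differences (amiR-SYD-1 minus amiR-SYD-2) of 1.343 for LHCB1.1 (adjusted p = 0.0300), 0.6757 for LHCB3 (0.0356), 1.026 for PSBQ2 (0.0396), 2.358 for LHCB1.4 (0.0396) and 1.098 for LHCB2.1 (0.0443). On ABA, LHCA1 was lower in amiR-SYD-1 (−0.9161; adjusted p = 0.0137). Over all tested genes, 0.413% were called higher in amiR-SYD-1 in ethanol and 0.352% lower on ABA. All 5 ethanol calls were lost without either amiR-SYD-1 ethanol library or replicate 2 of amiR-SYD-2 in ethanol, and those of LHCB1.1, LHCB2.1 and LHCB1.4 with DESeq2. All 5 were also lost without replicate 2 of amiR-SYD-1 on ABA, and some without its replicate 1 or either amiR-HsMYO ethanol library. The summed copies that hold LHCB1.1 (adjusted p = 0.235) and LHCB2.1 (adjusted p = 0.0532) did not pass in edgeR. The LHCA1 call was lost without either amiR-SYD-1 ABA library or replicate 2 of amiR-SYD-2 on ABA. The amiR-SYD-2 libraries held the larger spread between replicates, and its part in these differences was not tested.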

How the results depend on the processing

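Counts are members called, lower then higher, in edgeR fits. The share of all tested genes called in the same fit is not given in this section. A larger or smaller count is therefore not read as a result about the members. The fall on ABA in amiR-HsMYO held at 44 to 48 members lower and 0 to 1 higher when single libraries were left out, at 48 to 50 and 0 in amiR-SYD-1, and at 45 to 49 and 0 to 1 in amiR-SYD-2. Without single libraries the mean of the SYD lines gave 0 to 3 lower and 10 to 23 higher in ethanol, and 0 to 7 lower and 4 to 21 higher on ABA. For amiR-SYD-1 against amiR-HsMYO this was 0 and 11 to 30 in ethanol and 0 to 7 and 3 to 13 on ABA, and for amiR-SYD-2 0 to 7 and 4 to 9 in ethanol and 0 to 2 and 5 to 25 on ABA. The difference of mean ABA responses gave 0 to 3 lower and 0 to 1 higher. The difference by line gave 0 to 8 lower for amiR-SYD-1, 0 to 9 higher for amiR-SYD-2 and 0 to 12 lower for amiR-SYD-1 minus amiR-SYD-2. Between the SYD lines it was 0 to 14 higher in ethanol and 0 to 7 lower on ABA. With a library left out, the lone library of that group is assumed to vary like the other groups.

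With DESeq2 no member was higher on ABA in amiR-HsMYO (0), the mean of the SYD lines had 0 lower in ethanol and 1 lower on ABA, amiR-SYD-1 minus amiR-SYD-2 had 3 lower on ABA, and the response differences by line had 1 higher (amiR-SYD-2) and 4 lower (amiR-SYD-1 minus amiR-SYD-2). In fits of only the groups compared, 0 were higher on ABA in amiR-HsMYO, amiR-SYD-1 had 1 lower and 40 higher in ethanol and 8 lower on ABA, and the SYD lines differed for 9 (higher, ethanol) and 8 (lower, ABA). Without the low-count filter the calls were 3 lower and 26 higher for the mean in ethanol, 6 and 24 on ABA, 1 lower for amiR-SYD-1 in ethanol, 10 and 16 for it on ABA, 9 and 13 for amiR-SYD-2 in ethanol, 3 and 28 on ABA, 6 and 6 for the mean response difference, 28 higher and 15 lower between the SYD lines in ethanol and on ABA, and 16 lower, 17 higher and 23 lower for the responses by line. RLE scaling gave 8 higher for amiR-SYD-1 on ABA. With copies summed, each copy takes the value of its sum, and 3 were higher between the SYD lines in ethanol and 2 for the amiR-SYD-2 response. Those 2 were PSAH1 and PSAH2, which is 1 test counted for both copies (0.95; adjusted p = 0.0366). The causes were not tested.

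Over all tested genes, the correlation of deviations between same-numbered libraries of 15 pairs of groups was −0.034 to 0.149 (median 0.067). Over the members it was −0.431 to 0.499 (median −0.113). The labels give no pairing, and these values cannot tell whether replicate numbers pair the libraries. With the replicate block, amiR-SYD-1 on ABA had 9 higher, amiR-SYD-2 on ABA 1 lower, the mean response difference 1 lower (LHCB4.1, −0.34; adjusted p = 0.0436), the SYD lines in ethanol 13 higher, the amiR-SYD-1 response 6 lower and the amiR-SYD-2 response 1 higher. LHCB1.3 passed for the mean in ethanol with the block (0.70; adjusted p = 0.0241).

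For the SYD mean on ABA without single libraries, LHCB1.1 ran from −0.019 (adjusted p = 0.990) to 1.111 and LHCB1.3 from −0.27 (adjusted p = 0.150) to 0.51, both negative without replicate 2 of amiR-SYD-2 and highest without its replicate 1. PSAD2 turned positive for amiR-SYD-1 against amiR-HsMYO on ABA when copies were summed (0.24). LHCB1.4 on ABA in amiR-HsMYO ran from −3.625 to 2.08 at counts too low for a fold. With 2 libraries per group, small differences between lines are not resolved.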
